A study of Drosophila melanogaster with 3 samples.

Results

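The spliceosomal small nuclear RNA (snRNA) genes are the short noncoding genes whose RNAs form the cores of the U1, U2, U4, U5 and U6 particles that cut introns out of messenger RNA. They were taken here as every gene whose symbol starts with snRNA: in the Ensembl annotation of the fly genome, which gave 32 of 18164 genes on the X, chromosome 4 and the arms 3L, 3R, 2L and 2R, transposable elements left out. There were 5 U1, 6 U2, 3 U4, 7 U5 and 3 U6 genes, single genes for the minor spliceosome RNAs U4atac, U6atac, U11 and U12, and 4 genes with other names, 7SKa, 7SKb, U7 and LU. The rule therefore also took in RNAs that are not spliceosomal, namely 7SK, which holds the elongation factor P-TEFb inactive, and U7, which takes part in histone messenger RNA processing.

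The data were chromatin immunoprecipitation and sequencing (ChIP-seq) peaks from whole Drosophila melanogaster embryos, both sexes pooled, 0 to 14 h old, of a transgenic line that stably expressed CG15601 fused at its C-terminus to green fluorescent protein (GFP). An antibody against GFP was used, on chromatin sonicated to 200 to 800 bp. The series held 1 group of 3 biological replicates, with no untagged embryos among the samples, so a peak caused by the antibody alone cannot be told apart from one caused by the tagged protein. Whole embryos mix all cell types, and a peak does not say in which cells the protein was found. Peaks came in 5 lists, 1 for each replicate, 1 called on the pooled replicates, and 1 kept by the irreproducible discovery rate (IDR), which measures how well the ranking of peaks repeats. Every IDR summit given below with a rank had the same signal and rank in the pooled list. Some of these genes had no summit in 1 of the replicate lists, so an IDR summit does not mean that each replicate had it. The replicate and pooled lists held 30000 peaks each and the IDR list 6458. Each peak has a summit and a signal value from the authors' caller, which ranks peaks within a list and is not scaled between lists. A gene is said here to have a summit when a summit lay within 500 bp of its annotated start.

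Most snRNA genes, among them U1, U2, U4, U5, U11 and U12, are transcribed by RNA polymerase II, whereas U6, U6atac and 7SK are made by RNA polymerase III. In flies both kinds depend on the proximal sequence element A (PSEA), a promoter element a short way upstream of the start, which is bound by the snRNA activating protein complex SNAPc. The polymerase III genes also have a TATA box between PSEA and the start. Spliceosomal RNAs are needed in every cell, and their genes occur in several near-identical copies.

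The PSEA core TTCCCAA stood at an almost fixed place before most snRNA genes. Within 250 bases before to 50 bases after the start it was present, on either strand, in 26 of 32 snRNA promoters (81.2%), against 5.30% of all 18164 genes. The 26 copies on the gene's own strand began between 61 and 55 bases before the start, with a median of 58. Counting the related spelling TTCTCAA as well, by the word TTCNCAA, which was chosen after the promoters had been read, brought the number to 31 of 32 (96.9%), against 19.4% of all genes. The exception was 7SKb. The longer word AATTCCCA, which overlaps TTCCCAA, was in 23 snRNA promoters (71.9%), against 1.79% of all genes. CATGGA, the core of PSEB, a further element of the polymerase II genes, was in 9 (28.1%, against 8.31%), of which 6 (U1:21D, U1:82Eb, U1:95Ca, U2:34ABa, U2:34ABb and U7) had it on their own strand beginning at -33 to -31, and U5:38ABa, U5:63BC and U6atac had it elsewhere. Counted anywhere in that window on either strand, the TATA words were near their share in all genes or under it. TATAAA was in 15 (46.9%, against 43.9%) and TTTATAT in 4 (12.5%, against 20.9%). By place, TATAAA on the gene's own strand began at -31 in 7SKa and -30 in U6atac, and TTTATAT at -30 in U6:96Ab. These are polymerase III genes, and no other snRNA gene had either word at that place. The promoters of U6:96Aa and U6:96Ac below hold tatatata between TTCNCAA and the start, which was not a word counted.

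The promoters below are the 80 bases that end just before the start, on the gene's strand, of the 6 genes whose own start was the nearest to their IDR summit and of the other U6 and 7SK genes, from the RefSeq copy of genome release 6 (dm6 coordinates). Capitals mark TTCNCAA. They are shown because U6:96Ab and U6:96Ac, next to the strongest peak, carry the spelling TTCTCAA. LU, U4:25F and U2:38ABb carry this spelling too and had no summit in any list. A further reason is that the IDR summits before U5:63BC and U1:95Ca lay downstream of the word. They were at -41 and -38 bp, and the word ends at -52 in both genes. Replicate 1 placed its strongest summits at these genes elsewhere, at 45 and -139 bp.
snRNA:U6:96Aa (chr3R:24556008-24556087, plus strand): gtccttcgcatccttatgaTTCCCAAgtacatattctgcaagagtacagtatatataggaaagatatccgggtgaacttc
snRNA:U6:96Ab (chr3R:24556612-24556691, plus strand): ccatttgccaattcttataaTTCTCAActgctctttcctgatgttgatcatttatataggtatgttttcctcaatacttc
snRNA:U6:96Ac (chr3R:24557135-24557214, plus strand): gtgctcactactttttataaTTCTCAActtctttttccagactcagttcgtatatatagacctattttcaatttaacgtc
snRNA:U5:63BC (chr3L:3090721-3090800, plus strand): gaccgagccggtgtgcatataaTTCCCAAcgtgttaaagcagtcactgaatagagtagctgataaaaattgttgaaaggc
snRNA:U1:95Ca (chr3R:23859631-23859710, minus strand): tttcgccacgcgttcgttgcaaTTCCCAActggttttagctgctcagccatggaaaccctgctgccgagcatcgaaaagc
snRNA:U4:39B (chr2L:21215179-21215258, minus strand): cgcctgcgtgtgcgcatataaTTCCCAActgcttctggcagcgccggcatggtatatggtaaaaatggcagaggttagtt
snRNA:U2:34ABb (chr2L:13215759-13215838, plus strand): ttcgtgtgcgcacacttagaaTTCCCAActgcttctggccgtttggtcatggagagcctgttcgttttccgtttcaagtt
snRNA:7SKa (chr3R:7474997-7475076, minus strand): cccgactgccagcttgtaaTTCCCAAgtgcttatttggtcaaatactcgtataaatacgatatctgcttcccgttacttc
snRNA:7SKb (chr3R:23432789-23432868, plus strand): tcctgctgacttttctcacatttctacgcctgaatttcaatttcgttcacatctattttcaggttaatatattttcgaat

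Peaks of CG15601 lay at some snRNA genes, about as often as at genes in general. In the IDR list 8 of 32 snRNA genes (25%) had a summit, against 20.9% of all genes. The pooled list gave 14 of 32 (43.8%), against 42.0%. In the replicate lists 16, 15 and 12 snRNA genes had a summit in replicates 1, 2 and 3, a mean of 14.3 ± 2.08 (SD, n = 3). As shares these were 50%, 46.9% and 37.5% of the snRNA genes, against 38.4%, 44.1% and 45.5% of all genes. The snRNA share was above that of all genes in replicates 1 and 2 and below it in replicate 3. The means were 44.8% ± 6.51 for snRNA genes and 42.7% ± 3.77 for all genes (SD, n = 3 each). These SDs describe the spread between lists and not the uncertainty of a share over 32 genes, and the difference was not tested. A summit in every replicate list was found for 10 snRNA genes (31.2%), against 27.5% of all genes. A further 4 had one in 2 lists, 5 in 1 list, and 13 in none of the 5 lists.

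Set beside other noncoding genes, a larger share of the snRNA genes had an IDR summit. The IDR list had a summit at 25% of snRNA genes, against 24.7% of the 13945 protein-coding genes, 11.7% of the 290 tRNA genes, 6.32% of the 269 small nucleolar RNA (snoRNA) genes and 8.80% of the 3261 other noncoding RNA genes. No protein-coding start lay within 500 bp of 29 of the 32 snRNA genes. Of those 29, 7 (24.1%) had an IDR summit, against 5.86% of the 3533 other noncoding genes with no protein-coding start within 500 bp. The pooled list gave 12 of 29 (41.4%), against 25.3% of those 3533. The window was set around the gene start, so a summit counted here can still lie near a protein-coding start. The 7 and the 12 include U5:35D, whose IDR summit was 117 bp from the start of the protein-coding gene ND-B17. They also count the shared U6 peak once for each gene that has it. The same was not counted for the 3533 genes. For tRNA genes the order was reversed in the pooled list, with a summit at 62.4% of them, against 43.8% of all 32 snRNA genes. These shares are a description of 32 genes that partly share peaks, and no test of the difference was made.

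**Figure D1:**
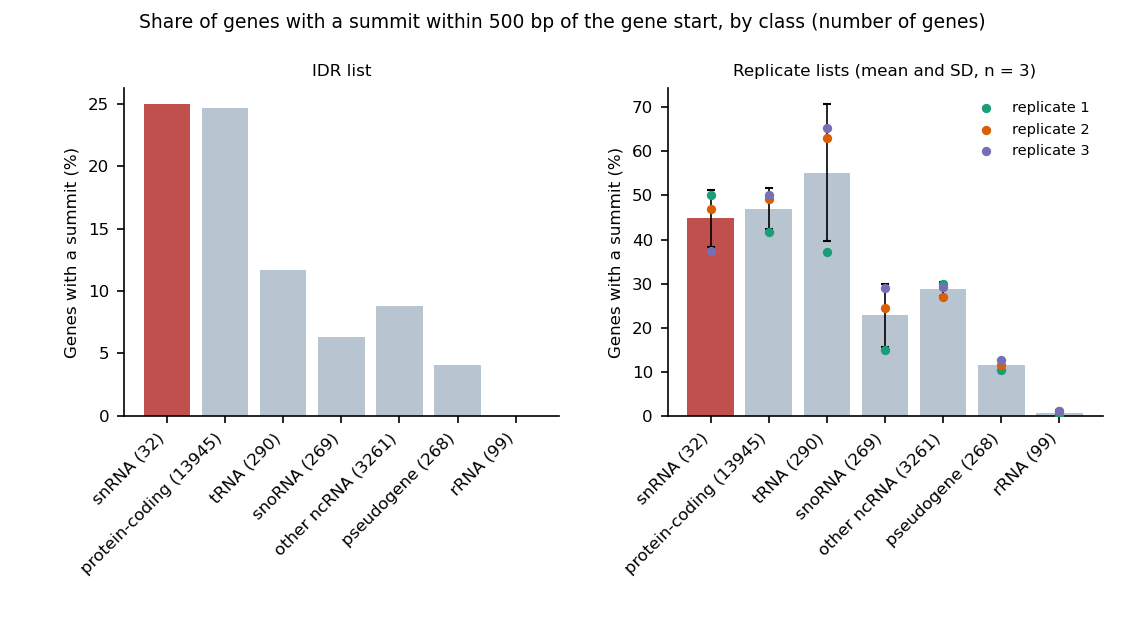
Percent of genes with a summit within 500 bp of the gene start, by gene class, in the IDR list (left, no replicates) and in the replicate lists (right, bars are means, error bars SD, points the 3 replicates). snRNA genes, at 25% in the IDR list, stand close to protein-coding genes (24.7%) and above tRNA, snoRNA and other noncoding RNA genes, while in the replicate lists tRNA genes average more (55.2%) than snRNA genes (44.8%).

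U6 genes held the strongest peak of the family. U6 RNA pairs with U2 and forms part of the catalytic centre of the spliceosome. Its 3 genes lie in a row on arm 3R, and their 107 transcribed bases are identical (100% in all 3 pairs), whereas the 200 bases before them are 51.7% to 56.2% identical. The peak (3R, 24556928 to 24557240) lay between U6:96Ab and U6:96Ac. Its summit was at -119 bp from the start of U6:96Ac, where a negative offset is upstream, and 298 bp past the end of U6:96Ab, so both genes count as having it although it is a single peak. It ranked 260 in the IDR and pooled lists with a signal of 1366, against a median signal of 309 in the IDR list. By rank it was 651, 336 and 141 in replicates 1, 2 and 3, with signals of 234, 433 and 676 on each list's own scale. Relative to the U6:96Ac start the summit stood at -122, -127 and -133 bp in those lists, so both strength and place repeated in every replicate. No list had a summit within 500 bp of U6:96Aa. The nearest protein-coding start to the peak, that of Esyt2, was 8079 bp away. The 101 bases around the summit (chr3R:24557046-24557146, plus strand), given to show the sequence at the summit itself, held none of the 8 words searched. TTCTCAA was not among those words. The TTCTCAA of U6:96Ac lies inside the peak interval, past the end of these 101 bases.
U6:96Ac summit: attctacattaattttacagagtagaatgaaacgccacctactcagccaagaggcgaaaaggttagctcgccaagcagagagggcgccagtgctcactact

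U5 genes ranged from a peak in every list to none in any. U5 RNA holds the exons in place during splicing, and its 7 genes were 78.3% to 96.1% identical. U5:63BC (3L, 3090801 to 3090923) had 2 IDR summits, at -41 bp with signal 571 (rank 1242) and at 158 bp, 36 bp past the gene's end, with signal 374 (rank 2405). The strongest summit ranked 1266, 1479 and 897 in replicates 1, 2 and 3, at offsets of 45, -47 and -40 bp, so replicate 1 placed it inside the gene and the others upstream. The summit at -41 bp lay downstream of TTCCCAA, which spans positions -58 to -52. The nearest protein-coding start, that of PAN3, was 8823 bp from the gene. U5:35D also counts as having an IDR summit, with signal 211 (rank 5331), but it was 487 bp after the gene's start and only 117 bp from the start of ND-B17, a gene for a subunit of mitochondrial complex I. Replicate 1 had this summit at 482 bp (rank 5875) and replicate 3 at 538 bp (rank 5050), outside the window, where a weaker one stood at 334 bp (rank 18899). Replicate 2 had no summit in the window. Another pooled summit of U5:35D, at -319 bp (rank 8825), was 262 bp from the start of Mtr4, an RNA helicase gene of the nuclear exosome pathway. U5:34A had a single weak summit, at -448 bp in replicate 2 (rank 19345), shared with U2:34ABc. U5:14B, U5:23D, U5:38ABa and U5:38ABb had none in any list.

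Of the 5 U1 genes 3 had a peak in every replicate, beside 27.5% of all genes, and these peaks were of moderate or low rank. U1 RNA pairs with the 5′ splice site, and its genes were 98.2% to 100% identical. U1:95Ca (3R, 23859467 to 23859630, minus strand) was the U1 gene with an IDR summit, at -38 bp with signal 261 (rank 4109). Replicates 2 and 3 placed their strongest summit at -47 bp (signal 78.2, rank 5945) and -36 bp (signal 146, rank 2460). Replicate 1 had a weaker one at -139 bp (signal 31.9, rank 10294), so the position repeated in replicates 2 and 3 and not in replicate 1. The IDR summit fell between TTCCCAA, at positions -58 to -52, and CATGGA, at -32 to -27. U1:21D had pooled summits at -88 bp (signal 78.0, rank 16204) and 118 bp (signal 171, rank 6923), the stronger just short of the IDR list, and a best rank of 6105, 5899 and 11411 in replicates 1, 2 and 3. U1:82Eb had a pooled summit at 46 bp (signal 141, rank 8607) and best ranks of 10684, 10136 and 9280. U1:95Cc had a weak summit in replicate 1 alone (rank 23589) and U1:95Cb none.

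U2 and U4 genes differed between their clusters. U2 RNA pairs with the branch point, and U4 RNA keeps U6 inactive until the spliceosome is activated. At 34AB on arm 2L, U2:34ABb had an IDR summit at 186 bp, near the end of its 192 bases, with signal 194 (rank 6002), close to the lowest signal of 182 in the IDR list. Its best rank was 5122 in replicate 1, 23063 in replicate 2 and 3219 in replicate 3, so replicate 2 had only weak summits there. The start of kek4, a kekkon family gene, was at -489 bp from that of U2:34ABb and 675 bp from the summit. U2:34ABa had pooled summits at 31 and 241 bp (ranks 15845 and 13553), the stronger 61 bp from the start of CG15482, and none in replicate 3. U2:34ABc had 1 summit, in replicate 2. At 38AB, where 5 genes for U2, U4 and U5 lie inside the span of the protein-coding gene sick, the IDR and pooled lists had no summit for any of the 5, and the replicate lists had 1, at U4:38AB in replicate 1 (60 bp, rank 15732). The pair U2:14B and U5:14B on X had none either. U4:39B had an IDR summit at 120 bp, inside its 143 bases, with signal 214 (rank 5250). Replicates 1, 2 and 3 placed its strongest summit at 113, 128 and 98 bp with ranks of 8645, 3346 and 12516. U4:25F, 73.8% identical to each of the other U4 genes, had no summit.

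The minor spliceosome genes U4atac, U6atac, U11 and U12 had no IDR summit, beside 20.9% of all genes with one. They are too few to set against that share. U12, the branch-point RNA of the minor spliceosome, had a pooled summit at -27 bp (signal 84.2, rank 14880), with summits at 68 bp in replicate 2 (rank 16579) and -33 bp in replicate 3 (rank 13700), and none in replicate 1. U11, which pairs with the 5′ splice site of minor introns, had a summit at -467 bp in replicate 1 (rank 28568) and, outside the window, an IDR summit at 808 bp. U4atac and U6atac had none in any list. U6atac was one of 3 snRNA genes with a protein-coding start within 500 bp, that of CG42819 at -393 bp, the others being U2:34ABa and U2:34ABb.

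Of the genes outside the spliceosome, 7SKa followed the U6 genes and U5:63BC in peak strength. 7SKa (3R, 7474553 to 7474996, minus strand) had an IDR summit at 230 bp, in the middle of its 444 bases, with signal 434 (rank 1895). Its strongest summit was at 251, 230 and 157 bp in replicates 1, 2 and 3, with signals of 62.0, 205 and 186 and ranks of 4545, 1340 and 1603. The 101 bases around the IDR summit (chr3R:7474716-7474816, minus strand) were 70.3% G and C, against 24.8% to 51.5% around the other IDR summits at snRNA genes, and are given for that reason.
7SKa summit: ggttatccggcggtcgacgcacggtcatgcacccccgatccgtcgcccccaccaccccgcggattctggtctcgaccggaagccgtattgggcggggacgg
7SKb, which is 49.7% identical to 7SKa over the gene and 47.6% over the 200 bases before it, had a weak pooled summit at -325 bp (signal 82.3, rank 15279) and none in replicate 3. U7 had pooled summits at 130 and 337 bp (ranks 15497 and 20724), past the end of its 71 bases, and its best ranks were 28162, 12979 and 9677 in replicates 1, 2 and 3, at 369, 328 and -108 bp. LU had no summit.

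**Figure D2:**
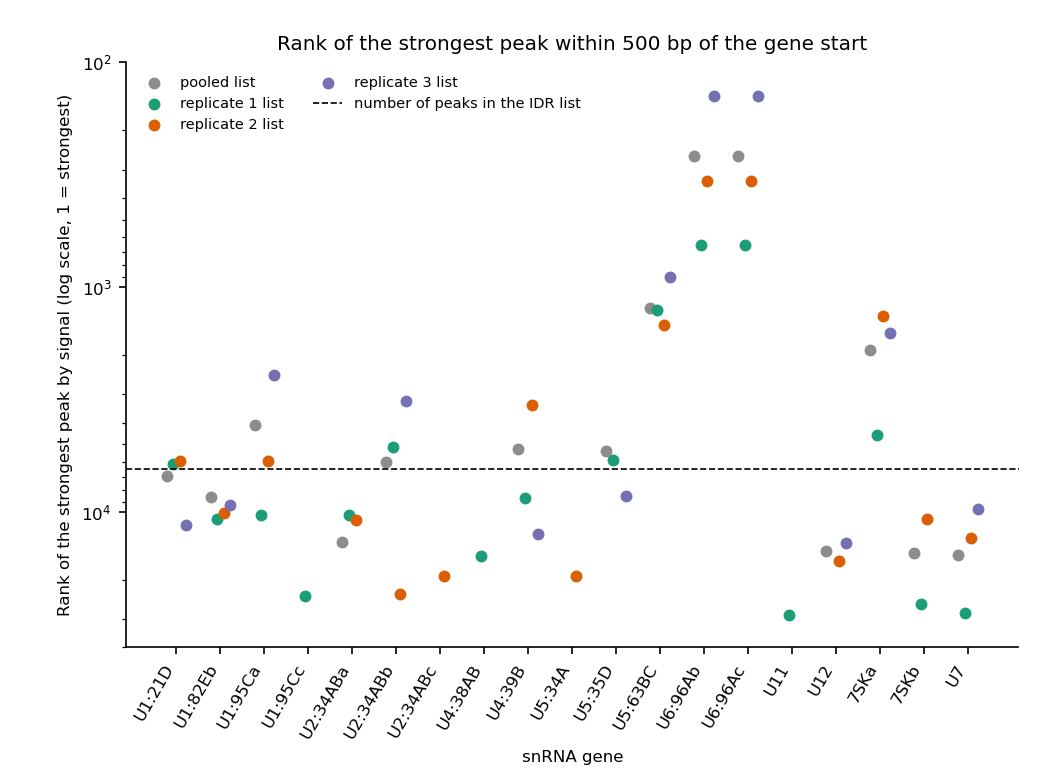
Rank by signal (log scale, 1 is the strongest) of the strongest peak within 500 bp of each snRNA gene start, in the pooled and 3 replicate lists, for the 19 genes with a summit in any list. The dashed line marks rank 6458, the size of the IDR list. U6:96Ab and U6:96Ac share a peak ranked 141 to 651, U5:63BC and 7SKa follow, and every other gene lies below the line, or has no point, in at least 1 replicate.

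Summits at snRNA genes lay on both sides of the start. In the IDR list, taking the nearest summit of each gene, 3 of 8 snRNA genes (37.5%) had it upstream, against 79.4% of all genes with a summit, and the median offset was 153 bp, against -110 bp. The genes with a downstream summit include U6:96Ab (404 bp) and U5:35D (487 bp), whose summits were nearer to the starts of U6:96Ac and ND-B17. The 3 upstream ones were all among the 6 genes whose own start was nearest to their IDR summit. Summits of all genes were not sorted in this way. In the pooled list 7 of 14 (50%) were upstream, with a median of 1.5 bp, against 69.9% and -75 bp. The replicate lists gave upstream shares of 43.8%, 53.3% and 66.7% for snRNA genes, against 71.4%, 68.1% and 70.1% for all genes. The snRNA share was the lower one in each list, with the smallest gap in replicate 3, and the difference was not tested. Of the 9 pairs of an IDR summit and an snRNA gene, 3 were upstream, 3 inside the transcribed bases and 3 past the end. None of the 3 peaks with a summit past the end covered the start of its gene. Summits were also no closer to each other than 199 bp in any list, and the 368 gaps under 430 bp in the IDR list had a median of 203 bp. The 2 summits of U5:63BC, 199 bp apart, were at this limit.

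**Figure D3:**
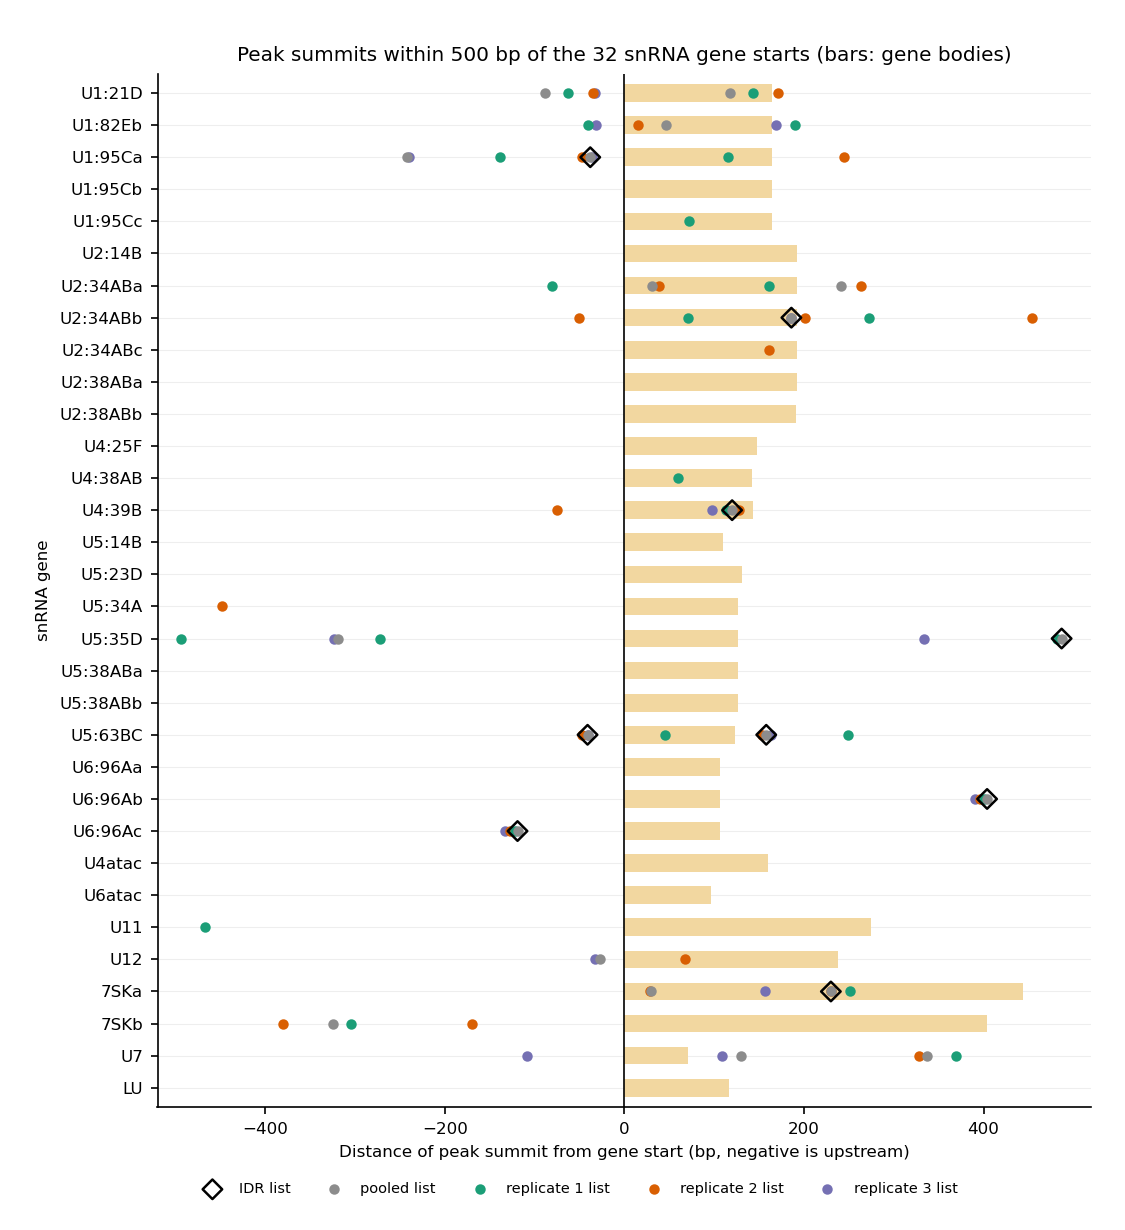
Distance of each peak summit from the gene start, in bp with upstream negative, for the 32 snRNA genes, with bars for the transcribed bases. Open diamonds are IDR summits and filled points are pooled and replicate summits. U6:96Ac, U5:63BC and U1:95Ca have an IDR summit upstream, U2:34ABb, U4:39B and 7SKa inside the gene, and U5:63BC, U5:35D and U6:96Ab past its end. In 13 genes there is no point.

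The peaks at snRNA genes ranked on either side of those at other genes. The best rank per gene had a median of 3002 over the 8 snRNA genes in the IDR list, against 2919 over the 3798 genes with an IDR summit, and of 5666.5 over 14 in the pooled list, against 6479. In the replicate lists the medians were 9466.5, 10136 and 5851 for snRNA genes, against 7009, 7034 and 6385 for all genes, which is weaker in replicates 1 and 2 and stronger in replicate 3. For 6 of the 8 genes with an IDR summit, the snRNA start was the nearest annotated start to the summit. The others were U6:96Ab, whose summit was nearer to U6:96Ac, and U5:35D, whose summit was nearer to ND-B17.

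Repeated sequence and the PSEA word were found in snRNA genes with and without peaks. As a measure of how far short reads can be placed, the share of 50-base words within 500 bp of the start that occur once in the genome was 46.8% to 100% (median 94.8%) over the snRNA genes, against a median of 100% over all genes, and 12 of 32 (37.5%) were under 90%, against 5.03% of all genes. It was 82.8% to 100% (median 94.2%) for the 14 genes with a pooled summit and 46.8% to 100% (median 94.8%) for the 18 without. The lowest values were at U2:38ABa (46.8%), U2:34ABc (51.8%) and U2:38ABb (51.9%), none of which had a pooled summit. Inside the transcribed bases the share was 0% for all 3 U6 genes, for U1:21D, U1:95Ca and U1:95Cb, and for U2:34ABb, U2:34ABc and U2:38ABa. Among the 20 genes at 90% or more, 5 (25%) had an IDR summit, against 21.9% of the 17251 such genes, and 8 (40.0%) a pooled one, against 43.7%. The part of repeated sequence in which copies had peaks was not tested. Of the 26 genes with TTCCCAA, 6 had an IDR summit, and of the 6 without it, 2 did, both of them by the shared U6 peak, beside 20.9% of all genes. A pooled summit was found for 11 of the 26 and 3 of the 6, beside 42.0% of all genes. None of the words TATCGATA (the DRE, site of Dref), GGTCACACT (Ohler motif 1) and GAGAGAG was in any of the 32 promoters, against 7.51%, 4.79% and 5.49% of all genes.

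**Figure D4:**
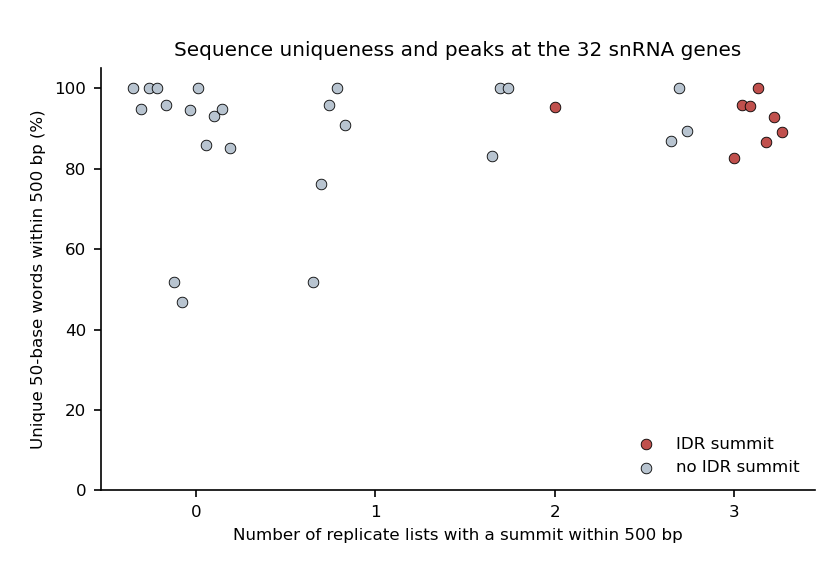
Percent of 50-base words within 500 bp of each snRNA gene start that occur once in the genome, by the number of replicate lists with a summit there, with points spread sideways for visibility. Genes with an IDR summit (red) lie between 82.8% and 100%, and genes with no summit in any replicate list reach from 46.8% to 100%.

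Genes on a list drawn up for the making and packaging of snRNAs had a larger share with a peak than protein-coding genes as a whole, a difference that was not tested. The list was meant to cover transcription, 3′ end cutting by Integrator, assembly of the Sm ring and the proteins bound to finished snRNAs, with 49 genes matched by symbol. Integrator and Lsm genes were taken by the form of their symbols, so any with another symbol was left out. Lsm genes were counted whether or not their product binds an snRNA. The U2 auxiliary factor genes U2af38 and U2af50 were counted with the U1 and U2 particle genes. Of these, 23 (46.9%) had an IDR summit within 500 bp of the start, against 24.7% of protein-coding genes and 25% of the snRNA genes. The pooled list gave 32 of 49 (65.3%, against 46.0% of protein-coding genes). Replicates 1, 2 and 3 gave 24, 36 and 36, or 49.0%, 73.5% and 73.5%, against 41.7%, 49.1% and 50.2% of protein-coding genes, so the gap was smallest in replicate 1. Of the 23 genes with an IDR summit, 7 had none in replicate 1, namely Pbp49, Tbp, SmB, LSm1, snf, icln and Phax, and each had one in replicates 2 and 3.

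Among the transcription factors, Brf, a subunit of the polymerase III factor TFIIIB, had the strongest peak, at -148 bp with signal 1887 (rank 128) and ranks of 84, 156 and 175 in the replicates. Bdp1, another TFIIIB subunit, followed at -98 bp with signal 965 (rank 491). Tbp, the TATA-binding protein, had an IDR summit at -35 bp (rank 5981) and its strongest summits at -184 and -170 bp in replicates 2 and 3, and Trf, a TBP relative that works with polymerase III in flies, had none. Of the SNAPc subunits, Pbp49 had an IDR summit at -185 bp (rank 2416), Pbp45 had a weak summit in replicate 1 alone, and Pbp95 had none. Of the 11 Integrator genes matched by symbol, which are not the whole complex, 5 had an IDR summit. They were led by IntS6 (signal 610, rank 1114), IntS11, the endonuclease subunit (rank 1899), and IntS4 (rank 2532), all of them found in every replicate.

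Sm ring genes had an IDR summit in 3 of 6 cases, SmB (rank 2995), SmD3 (rank 4583) and SmD1 (rank 6272), and Lsm genes in 2 of 6, LSm1 (rank 2249) and LSm7 (rank 2409). Of the genes listed for the U1 and U2 particles, the U2 auxiliary factor included, 3 of 6 had one. They were U2af50, the large U2 auxiliary factor subunit (signal 828, rank 669), snRNP-U1-C (rank 1743) and snf (rank 5152). In the assembly group 4 of 10 did, with icln at rank 4240, rig, the fly Gemin5, at rank 4852, and Smn, the survival motor neuron protein, at rank 5211, followed by Phax, the export adaptor. For the 7SK and La proteins it was 2 of 3, bin3, the 7SK capping enzyme relative (rank 1871), and La, which binds the 3′ ends of polymerase III RNAs (rank 4067), but not Larp7. The IDR summit given for each gene of the list was upstream of the start, except that of Smn, at 9 bp. Of the 3441 protein-coding genes with an IDR summit, 81.3% had their nearest one upstream. Whether the start of another gene lay nearer to the summits of the listed genes was not checked.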

How the data were processed

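Peaks were analysed as deposited for 3 samples of 1 group (transgenic embryos, biological replicates 1, 2 and 3 per the labels). Per the README listings among the deposited files, all lists are narrowPeak files on dm6, called on each replicate or on the 3 pooled, against the same control file, and the IDR list was derived from the other 4. For aligner and peak caller, names and versions were not given in the sources used here. The deposited signal value per peak was used only to rank peaks within a list. The −log10 q-value deposited with it is 4.16 for every IDR peak and was not used to rank. Positions and summit offsets were taken from the deposited narrowPeak columns, with the summit at start plus offset. Read depth is unknown, since the lists hold no counts, so no interval for a value could be given.

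Genes came from Ensembl release 115 (BDGP6.54). Sequence was read from RefSeq's copy of release 6, and no peak ran past a chromosome end. Identity is over global alignments (match 1, mismatch -1, gap opening -2, gap extension -1). The window count was tested on simulated data. Because there is 1 group, no test between groups could be made, and counts stand beside the same count over all genes. Named genes are all 32 members and, per machinery complex, the 3 with the highest IDR signal. Machinery genes with no IDR summit, Phax, the coding genes near U5:35D, U5:63BC, U6 and U6atac, and the genes outside the family in the closing section were named after their values were seen. Of the machinery list, SmG, Gem4a, Gem5, snup and HEXIM matched no symbol. Integrator and Lsm genes were found by a pattern of symbols, so genes of these groups with other symbols are not in the list. The members and lists were chosen with earlier results of these data known. Python 3.11.15, numpy 2.4.6, pandas 2.3.3 and Biopython 1.88 were used.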

Additional observations from a re-analysis of the deposited data

How the results depend on the processing

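Of 42 recomputed values, 28 stayed near the reported value, by 1.5 times for counts of genes and by 1 SD over the replicates for the mean count and the median offset. When a peak interval had to cover the gene start, 5 snRNA genes had an IDR peak (4 of them with no protein-coding start within 500 bp), a mean of 10.3 had a replicate peak (32.3%, against 28.8% of all genes) and 6 had one in every replicate (18.8%, against 14.4%), and the IDR share was then 15.6% of snRNA genes, against 13.7% of all genes. With the IDR list cut at its median rank, 4 snRNA genes had a summit (4 with no protein-coding start within 500 bp; 12.5%, against 11.4% of all genes), as did 12 machinery genes (24.5%, against 13.5% of protein-coding genes). With only the strongest peaks of each replicate list, as many as in the IDR list, the mean was 6.67 (20.8%, against 20.6% of all genes) and 4 genes had a summit in every replicate (12.5%, against 12.8%). A window of 250 bp gave a replicate mean of 10.7 (33.3%, against 33.1% of all genes) and one of 1000 bp gave 17 (53.1%, against 50.9%). Taking the strongest instead of the nearest pooled summit moved the median offset to 119 bp. Among genes with at least 90% unique 50-base words, a choice made after the data were seen, 5 had an IDR and 8 a pooled summit, out of 20. Leaving out 1 replicate at a time gave means of 13.5 to 15.5, 11 to 12 genes in both remaining replicates, and 7 to 8 genes with an IDR summit that both remaining replicates shared. No paired analysis was possible because the series holds 1 group.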

Other observations

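PSEA-like words also stood before some genes outside the family. With AATTCNCAA, the longer word chosen after the snRNA promoters had been read, 27 of the 32 snRNA genes had a match on their own strand at the offsets seen in the family (first base of TTCNCAA between 64 and 55 bases before the start), and 11 other genes of the genome did, 8 noncoding and 3 protein-coding (CG1774, SAK and CG30392). Of the 11, 4 had an IDR summit, among them CG1774 and SAK, and 6 a pooled one. The noncoding ones included snoRNA:U3:9B, the gene of a U3 small nucleolar RNA, with a pooled but no IDR summit, tRNA:SeC-TCA-1-1, the selenocysteine tRNA gene, with neither, and lncRNA:CR34335, with both. The shorter TTCCCAA was at the same offsets before 19 genes outside the family, of which 4 (21.1%) had an IDR summit and 9 (47.4%) a pooled one, against 20.9% and 42.0% of all genes. In the immediate surroundings of the window, U5:38ABb had an IDR summit at 926 bp (rank 4194) and U11 one at 808 bp (rank 6088).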
